A study of Rattus norvegicus with 12 samples.

Results

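The genes of the cytoplasmic ribosomal proteins were followed in rat optic nerve head astrocytes treated with epidermal growth factor (EGF), which acts through the EGF receptor. A gene was counted when a probe set carried its symbol alone in the platform's annotation and the symbol was Rpsa or was built from Rpl, Rps or Rplp and a number. Where a gene had several such probe sets, as 6 genes did, the one with the highest mean signal over the 12 arrays was used. These rules gave 48 of the 14217 genes with a single symbol. Of the 48, 13 code for proteins of the small subunit, 28 for proteins of the large subunit, 1 (Rplp0) for the base of the P stalk, and 6 for like forms of other ribosomal proteins (Rpl3l, Rpl7l1, Rpl26l1, Rpl39l1, Rps27l and Rps4y2). The filter on dim probe sets left 45 for testing. Rpl3l, Rpl39l1 and Rps4y2 lay below it. Rps19, Rps27a, Rpl10, Rplp1 and Rplp2 had no probe set that met the rule and are not analysed here.

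Primary astrocytes were grown from the rat optic nerve head, the site at which retinal axons exit the globe. In the first experiment, EGF was present for 4 h and control cultures were sisters of the treated ones. In the second, it was present for 12 h, again with control cultures of its own. Each of the 4 groups (EGF 4 h, control 4 h, EGF 12 h, control 12 h) held 3 Affymetrix arrays. The rats' strain and age, the EGF dose and what the control cultures received are not given in the sources used here, and no source says that replicates came from different cultures. The p-values therefore refer to the spread among these arrays, which may be technical.

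Each ribosome pairs a small subunit, which reads the mRNA, with a large subunit, which joins amino acids, and nearly all of its proteins occur once in every ribosome. Ribosomal protein mRNAs are among the most abundant of growing cells. Most of them begin with a run of C and T (U in the RNA), the 5′ terminal oligopyrimidine tract, through which growth factor signalling by mTORC1 governs their translation. Growth factors also raise the production of ribosomes in the nucleolus, where ribosomal RNA is made and joined to these proteins. The arrays measured RNA levels and not translation. In RNA from whole cultures, fewer cells of a type and less RNA per cell cannot be told apart.

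The start sites are shown because the pyrimidine tract is the feature by which these genes are usually recognised. RefSeq promoter windows (build GRCr8, 250 bases before to 50 bases after the annotated start) were found for 43 of the 48 genes. The 20 bases on each side of the start are printed 5′ to 3′ on the gene's strand. Capitals mark the longest run of C and T that reaches within 5 bases of the start. The first 5 genes rose at 12 h and the next rose at 4 h, while the last 4 passed at neither time.
Rpl4, chr8:73566457-73566496, plus strand: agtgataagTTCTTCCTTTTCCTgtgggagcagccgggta
Rps9, chr1:74430418-74430457, minus strand: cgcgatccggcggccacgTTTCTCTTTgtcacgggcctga
Rpl14, chr8:129163600-129163639, plus strand: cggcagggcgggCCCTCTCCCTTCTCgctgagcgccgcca
Rpl18, chr1:105325250-105325289, plus strand: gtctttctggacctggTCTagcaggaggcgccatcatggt
Rps3, chr1:163195757-163195796, minus strand: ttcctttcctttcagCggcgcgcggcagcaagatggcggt
Rpl7l1, chr9:21695698-21695737, plus strand: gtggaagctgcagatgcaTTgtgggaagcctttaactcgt
Rps23, chr2:23814497-23814536, plus strand: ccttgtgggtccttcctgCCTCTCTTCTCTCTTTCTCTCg
Rpl19, chr10:83519044-83519083, plus strand: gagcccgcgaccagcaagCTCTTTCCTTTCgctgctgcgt
Rplp0, chr12:46718371-46718410, minus strand: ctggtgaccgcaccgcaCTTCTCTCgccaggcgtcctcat
Rps27l, chr8:76443638-76443677, plus strand: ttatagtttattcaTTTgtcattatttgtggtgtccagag
The run was 14 bases long in Rpl4 and Rpl14, 9 in Rps9 and 21 in Rps23, against 3 in Rpl18, 2 in Rpl7l1 and 3 in Rps27l. In Rps3 the capital is a single C, although a longer run of C and T ends shortly before it.

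Over the 43 windows the run had a median length of 8 bases, against 3 over all 33469 promoters of the table, and 28 genes (65.1%) had at least 5 bases, against 29.3%. Among the 9 genes called at either time, 4 had such a run, as did 23 of 31 tested genes that were not called. That difference was not tested. The letters CTTTCC stood within 20 bases of the start on the gene's strand in 25.6% of the windows and in 1.73% of all promoters. Anywhere in the 300 bases, on either strand, CTTTCC was found in 44.2% against 26.4%, and CTTCCG, the core of the sites bound by ETS family factors, in 46.5% against 16.6%. The letters TATAAA were found in 14% against 14.2%. The 3 motifs can overlap the run of C and T or, with CTTTCC and CTTCCG, share bases with each other. They were picked after the sequences had been seen, and a match is a string of letters and not a shown site.

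Signals are MAS5 signal units on a linear scale, which the authors had brought to a common trimmed mean of about 1500.46 to 1500.56 per array. All fold changes are log2 fold changes of signal plus an offset of 24.4, with their standard error (SE), from limma fitted across all 18625 tested probe sets. Adjusted p values are Benjamini-Hochberg values over all of these. The number of arrays limits the precision, and the median SE was 0.18 for the ribosomal protein genes and 0.23 for all tested probe sets. Of the 48 genes, 38 had a mean signal above the 99th percentile of all probe sets (27970.6), so most ranked among the brightest probe sets. The table holds no saturation marks, so how close these signals came to saturation cannot be told. Dim single-symbol probe sets stood for Rpl28, Rpl30, Rpl39, Rps13 and Rpl26l1, with mean signals of 509.8, 291, 956, 291 and 268.

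The arrays fell into sets by their control probe sets. The actin 3′ to 5′ ratio, which rises when RNA is broken or copied short, was 1.20 to 1.61 on the 4 h arrays, 11.1 to 21.7 on the 3 controls and EGF replicates 1 and 2 at 12 h, and 1.24 on EGF replicate 3 at 12 h. The Gapdh ratio divided them the same way (0.933 to 1.07, 6.69 to 8.44, and 1.19). The replicate 3 pair at 4 h had hybridisation controls of 21217 (EGF) and 23645 (control), against 49.6 to 111 elsewhere. EGF replicate 3 at 12 h therefore stood alone in its group, and 12 h values are also given without it where a call, a direction or a value turned on it. Of 11 astrocyte markers measured, 5 passed the filter (Vim, Glul, Nes, Slc1a3 and S100b). Gfap, the defining marker, did not, at 36.2 to 347 units, nor did Aqp4 or Pax2. All 6 fibroblast markers passed, 3 of 7 microglial, 3 of 7 oligodendrocyte, 3 of 4 Schwann cell, 1 of 4 endothelial and 0 of 6 neuronal ones.

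At 4 h, 1 of the genes followed passed the test, the like form Rpl7l1. Of the 28 large subunit genes, the 13 small subunit genes and Rplp0, 0 passed. Of the 45 tested genes, 1 rose, 0 fell and 44 passed in neither direction by limma, where 11.4% of all tested probe sets rose and 16.5% fell. The median log2 fold change was -0.09, against -0.15 for all tested probe sets. At an unadjusted p under 0.05 by limma the counts were 1 and 0, a threshold at which all tested probe sets were not counted. The value lay above 0 for 9 genes and below 0 for 36. With each array centred on its median, the median of the 45 was 0.02 and 29 lay above 0 and 16 below, so the side of 0 turned with the scaling, whereas the calls stayed at 1 and 0 (13.3% higher and 11.8% lower over all tested probe sets). By array, the median of the 45 genes relative to the mean of the controls was -0.26, -0.16 and 0.17 on EGF replicates 1, 2 and 3, and -0.14, 0.06 and 0.08 on the controls. The EGF and control arrays overlapped, and the replicate 3 pair held the highest of each group.

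**Figure D1:**
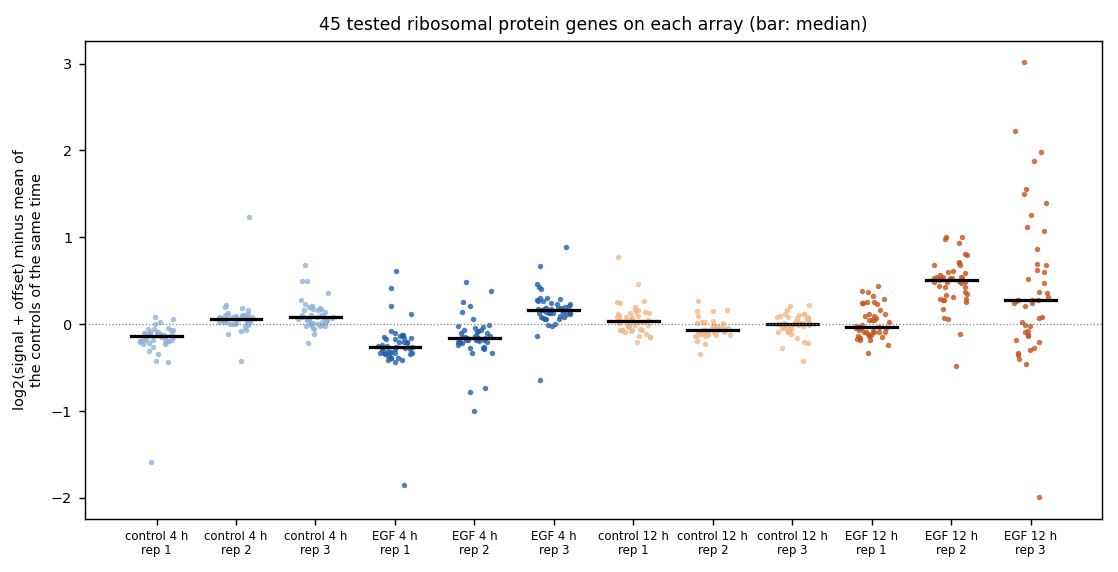
Each point is 1 of the 45 tested ribosomal protein genes on 1 array, as log2(signal + offset) minus the mean of the 3 controls of the same time, and each bar is the array's median. The 4 h arrays stayed within a median of -0.26 to 0.17, whereas the EGF arrays at 12 h had medians of -0.03, 0.51 and 0.27 and replicate 3 spread from -1.99 to 3.01.

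The 1 gene that rose at 4 h was Rpl7l1, a paralogue of the large subunit gene Rpl7. Its signal was 8551, 7866 and 6292 on the EGF arrays and 5835, 5846 and 5164 on the controls. All EGF arrays lay above all controls, and the smallest gap was in the replicate 3 pair. The log2 fold change was 0.42 ± 0.14 (SE; adjusted p = 0.0404). The call was narrow: leaving out any 1 of the 3 controls or of EGF replicates 1 and 2 at 4 h, or any 1 of the 3 controls at 12 h, ended it (adjusted p = 0.0503 to 0.162 by limma), and the value then lay between 0.33 and 0.45. At 12 h the signal was 6823, 8369 and 7042 with EGF and 5543, 6414 and 5452 without, again with no overlap, and the log2 fold change of 0.35 ± 0.14 (SE; adjusted p = 0.0692) missed the threshold. It was called with the array set as a block (0.38, adjusted p = 0.0129 by limma) and with the replicate block (adjusted p = 0.0355). A second probe set of Rpl7l1 gave 0.44 at 4 h (adjusted p = 0.24 by limma) and 0.77 at 12 h (adjusted p = 0.0349). Rpl7 itself stood at -0.06 and 0.23, and neither passed.

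Rps13, a small subunit protein, was the other gene with all EGF arrays above the controls at 4 h, on a dim probe set. It read 356, 404 and 428 with EGF and 256, 349 and 315 without, a log2 fold change of 0.35 ± 0.27 (SE; adjusted p = 0.38). So 2 of 45 genes had EGF arrays above the controls without overlap, and 0 below, where the shares over all tested probe sets were 18.3% and 29.8%. The lowest values, on dim probe sets, were those of Rpl30 at -0.69 ± 0.33 (SE; adjusted p = 0.146) and of Rpl26l1 at -0.58 ± 0.70 (SE; adjusted p = 0.587), and neither passed. Among bright probe sets the lowest were Rpl21 (-0.26), Rpl12 (-0.22), Rpl7a (-0.20) and Rpl22 (-0.18), with adjusted p of 0.356 to 0.481.

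Genes with known regulatory roles did not pass at 4 h. Rps6, whose protein is phosphorylated by S6 kinase after growth factor stimulation, read 58479, 63364 and 86851 with EGF and 68072, 76227 and 77518 without. Rplp0, which anchors the P stalk where elongation factors dock, read 55132, 59537 and 74921 and 64404, 72435 and 68819. In both genes the lowest and the highest of the 6 arrays were EGF arrays, and the log2 fold changes were -0.11 and -0.13 (adjusted p = 0.682 and 0.63 by limma). Rpl5 (-0.16) and Rpl11 (-0.003), which travel with the 5S ribosomal RNA and can bind the p53 regulator MDM2, and Rpl23 (-0.13), another MDM2 binder, did not pass either. Rpsa, also known as the laminin receptor precursor, stood at -0.14 (adjusted p = 0.473).

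**Figure D2:**
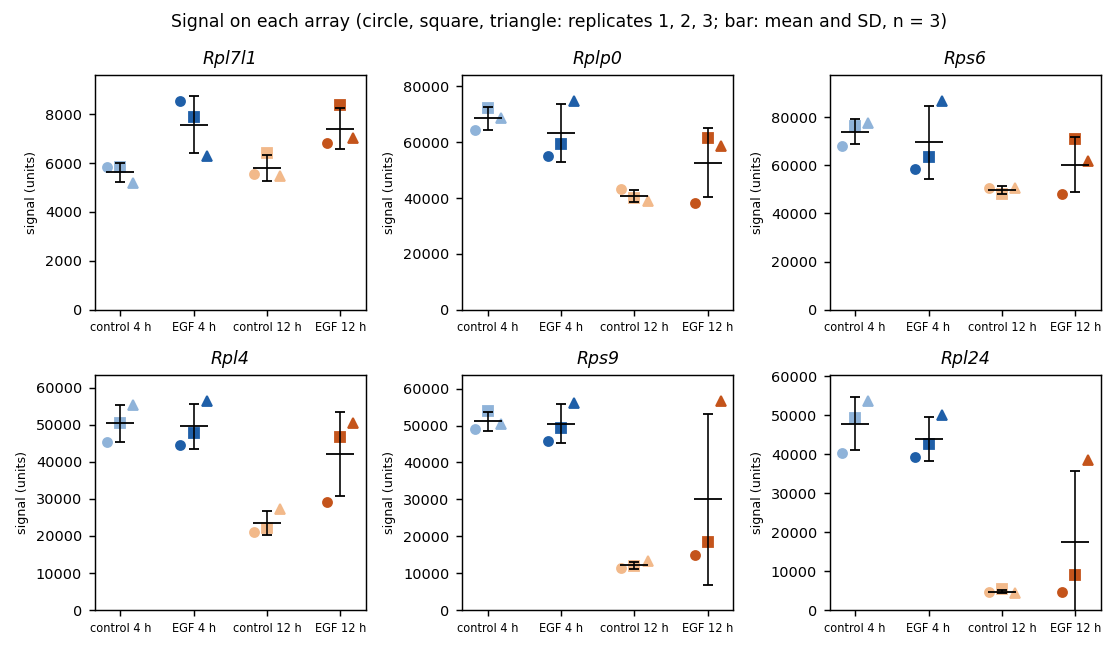
Signal of 6 ribosomal protein genes on each of the 12 arrays, on linear axes from 0, with the mean and SD of the 3 arrays of each group; for Rpl24 with EGF at 12 h the SD bar runs below 0 and is clipped. Rpl7l1 separated EGF from control at 4 h, Rps6 and Rplp0 overlapped at both times, and Rps9 and Rpl24 were high on EGF replicate 3 alone of the 12 h arrays.

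At 12 h, 8 of the 45 genes rose, 0 fell and 37 passed in neither direction, where 15.3% of all tested probe sets rose and 20.8% fell. The share that rose, 8 of 45, was close to the share of all probe sets. At an unadjusted p under 0.05 by limma, 15 genes were higher and 0 lower. The share of all tested probe sets at that threshold was not counted, so these counts cannot be set against one. The median log2 fold change was 0.24, against -0.06 for all tested probe sets, and 39 genes lay above 0 and 6 below. It was 0.34 with each array centred on its median and 0.07 after quantile normalization, with 15 and 8 genes called. After centring, 18.4% of all tested probe sets rose and 16.6% fell. In 7 genes (Rpl4, Rpl6, Rpl7l1, Rpl14, Rpl18, Rps3 and Rps9) all EGF arrays lay above all controls, and in 0 all lay below, where these shares were 19.7% and 28.3% over all tested probe sets. By subunit, 6 of 28 large subunit genes and 2 of 13 small subunit genes rose, with medians of 0.23 and 0.26.

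The 3 EGF arrays at 12 h did not carry the rise alike. Relative to the 12 h controls, the median of the 45 genes was -0.03 on EGF replicate 1, 0.51 on replicate 2 and 0.27 on replicate 3, against -0.07 to 0.04 on the controls themselves. On replicate 3, 10 genes were more than 2-fold above the controls and 1 more than 2-fold below; replicate 2 had 1 and 0, and replicate 1 had 0 of either kind. Left out in turn, these arrays gave 16 higher genes without replicate 1, 5 without replicate 2 and 6 without replicate 3 (15.7% of all tested probe sets higher and 20.8% lower in that fit). Without control replicate 1, 2 or 3 at 12 h, 4, 4 and 5 genes were called. In each of these fits 0 genes were called lower. Among them the share of all tested probe sets was counted only without EGF replicate 3, so the other counts have no share beside them.

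Among the large subunit genes, Rpl4, whose long arm lines the peptide exit tunnel, had the smallest adjusted p. It read 29276, 46851 and 50583 with EGF and 20988, 22188 and 27262 without. All EGF arrays lay above the controls, replicate 1 only just. The means were 42237 ± 11379 and 23479.6 ± 3330.4 (SD, n = 3), and the log2 fold change was 0.82 ± 0.19 (SE; adjusted p = 0.0045), or 0.67 without EGF replicate 3.

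Rpl18, another large subunit protein, read 40338, 66766 and 54654 with EGF and 32203, 34108 and 35457 without. Replicate 2 was the highest and the groups did not overlap. The log2 fold change was 0.64 ± 0.17 (SE; adjusted p = 0.00945) and was hardly changed by leaving out replicate 3 (0.61).

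Rpl14 read 13077, 16256 and 39999.7 with EGF and 9309.6, 10818 and 10233 without. Replicate 3 stood far above the other EGF arrays, though all 3 exceeded the controls. The log2 fold change of 1.01 ± 0.29 (SE; adjusted p = 0.0158) fell to 0.53 without replicate 3, and that value still passed (adjusted p = 0.00535).

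Rpl11, Rpl35 and Rpl6 passed by less. Rpl11 read 43653, 54583 and 58949 with EGF and 43703, 35808 and 31879 without, so that EGF replicate 1 and control replicate 1 were level. Its log2 fold change was 0.50 ± 0.15 (SE; adjusted p = 0.0221). Those of Rpl35 and Rpl6 were 0.48 ± 0.16 (SE; adjusted p = 0.0333) and 0.51 ± 0.18 (SE; adjusted p = 0.0416). None of the 3 passed without EGF replicate 3 (adjusted p = 0.0544, 0.0731 and 0.0748, at 0.41, 0.40 and 0.46), nor without EGF replicate 2.

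Of the small subunit genes, Rps3 and Rps9, whose proteins lie near the channel by which mRNA enters, rose. Rps3 read 25240.5, 42156 and 55418 with EGF and 20706, 20393 and 22147 without, a log2 fold change of 0.89 ± 0.23 (SE; adjusted p = 0.00761) that was 0.63 without replicate 3. Rps9 read 14804, 18564 and 56679 with EGF and 11346, 11903 and 13196 without. Replicates 1 and 2 of Rps9 lay just above the controls and replicate 3 several-fold above them, at the level of the 4 h arrays (45833 to 56181). Its log2 fold change was 1.04 ± 0.35 (SE; adjusted p = 0.0315) with all arrays and 0.45 without replicate 3 (adjusted p = 0.0138). Rpl4, Rpl18 and Rps3 were called in all 23 alternatives for the 12 h effect, but not all of these could end a call. Dropping a 4 h array leaves the 12 h log2 fold change as it was and alters only the estimate of the spread. The choice of another probe set could not move these genes, which have 1 each.

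The largest rise by value was not called. Rpl24, a late-joining protein that bridges the subunits, read 4718, 9102 and 38416 with EGF and 4510.1, 5285 and 4459.8 without at 12 h. Replicate 1 was inside the range of the controls, replicate 2 was above it and replicate 3 was at 5.84 times the level of the other EGF arrays. Its log2 fold change was 1.31 ± 0.51 (SE; adjusted p = 0.058), and 0.47 without replicate 3. Rps24 likewise read 21147, 32791 and 75443 with EGF and 18533, 22986 and 20179 without, and its 0.87 ± 0.33 (SE; adjusted p = 0.0528) became 0.36. A second, dimmer probe set of Rps24 (mean signal 1019.6) went the other way at both times, 0.61 at 4 h (adjusted p = 0.026) and -0.58 at 12 h (adjusted p = 0.025), with a difference between the times of -1.19 (adjusted p = 0.0108).

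Of the genes with regulatory roles, Rpl11 rose at 12 h, as given above, and Rps6, Rplp0, Rpl5, Rpl23 and Rpsa did not pass. Rps6 read 48248, 70989 and 61739 with EGF and 50659, 47925 and 50550.0 without, and Rplp0 38393, 61380.5 and 58525 and 43256, 40031 and 39093. In both, EGF replicate 1 lay within or below the controls and the other EGF arrays above them. Their log2 fold changes were 0.26 ± 0.17 (SE; adjusted p = 0.24) and 0.34 ± 0.17 (SE; adjusted p = 0.139). Rpl5 stood at 0.11 and Rpl23 at 0.27 (adjusted p = 0.649 and 0.212). Rpsa stood at 0.31 ± 0.13 (SE; adjusted p = 0.0732) and passed without EGF replicate 3 (0.42, adjusted p = 0.0114); its other probe sets gave 1.18 and 0.38, both called (adjusted p = 0.0305 and 0.0324).

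The lowest value at 12 h was that of Rps27l, a paralogue of Rps27 known as a target of p53. It read 3470.0, 3959 and 798 with EGF and 3419, 3328 and 2988 without. EGF replicates 1 and 2 were above the controls and replicate 3 was at the level of the 4 h arrays, 737 to 1169. The log2 fold change was -0.53 ± 0.44 (SE; adjusted p = 0.366) and turned to 0.19 without replicate 3. The other values below 0 were -0.27 for Rpl39 and between -0.03 and -0.01 for Rps13, Rpl41, Rpl22 and Rpl19.

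**Figure D3:**
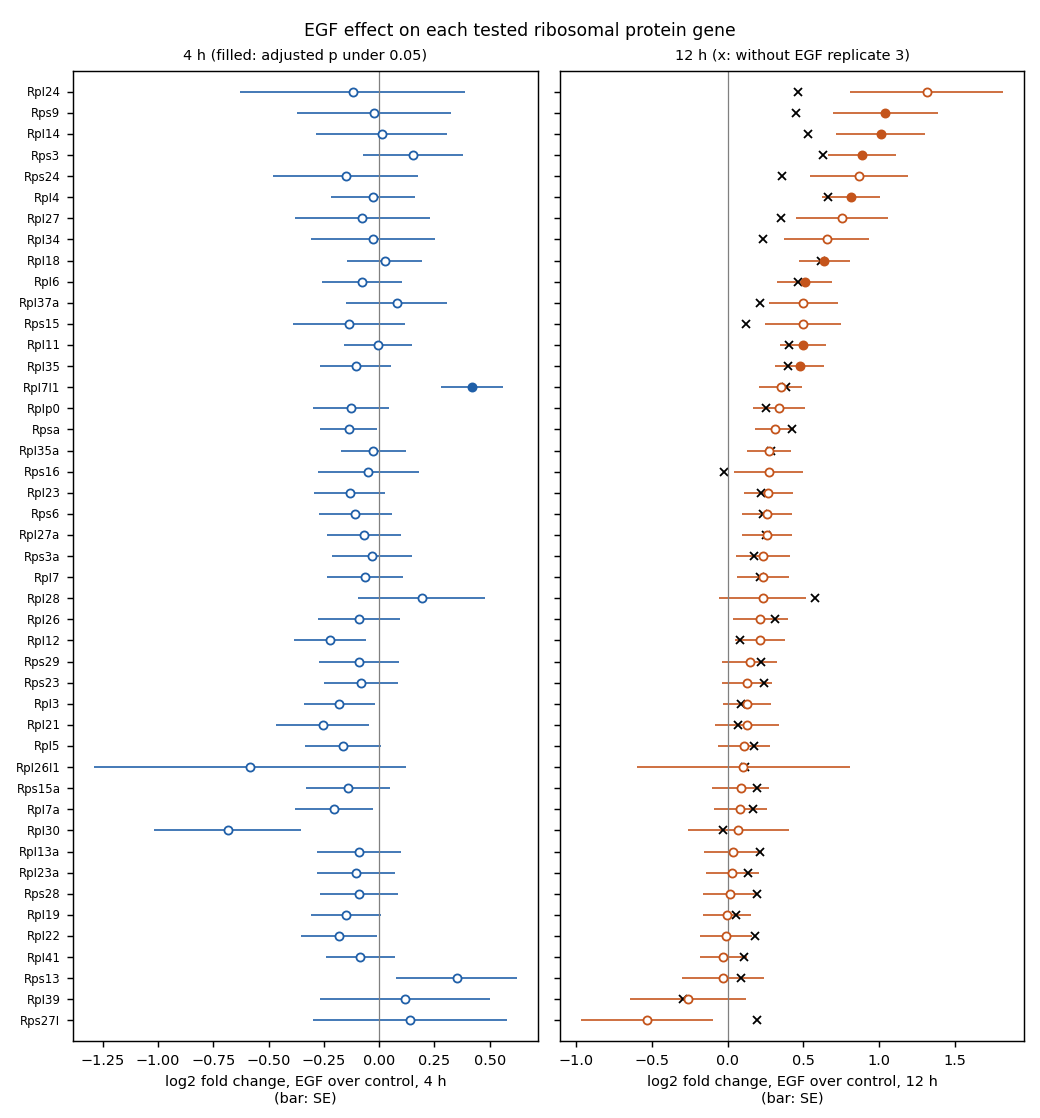
Log2 fold change of EGF over control for each tested ribosomal protein gene at 4 h (left) and 12 h (right), with the SE as a bar; the axes differ in scale. Filled circles mark an adjusted p under 0.05 and crosses give the 12 h value without EGF replicate 3. Rpl7l1 was the only filled gene at 4 h, 8 genes were filled at 12 h, and the upper genes of the right panel moved most without replicate 3.

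The effect at 12 h was then compared with that at 4 h as an interaction term. By limma 0 genes passed in either direction. Over all tested probe sets, 5.45% had a higher and 6.11% a lower effect at 12 h. At an unadjusted p under 0.05 by limma 10 genes were higher and 0 lower, without a share of all probe sets counted at that threshold. The median difference of the 45 genes was 0.33, against 0.05 for all tested probe sets, and 41 genes lay above 0. After quantile normalization the median difference of the 45 genes was 0.05. The largest difference was that of Rpl24, 1.44 ± 0.72 (SE; adjusted p = 0.223). Rps9 followed at 1.06 ± 0.49 (SE; adjusted p = 0.186) and Rps24 at 1.02 ± 0.46 (SE; adjusted p = 0.179). The smallest adjusted p was that of Rpl4, at 0.84 ± 0.27 (SE; adjusted p = 0.0614). At the other end stood Rps27l (-0.67), Rpl39 (-0.38) and Rps13 (-0.38). Several of these values turned on EGF replicate 3 at 12 h. Without that array the differences were 0.59 for Rpl24, 0.47 for Rps9 and 0.05 for Rps27l. The count depended on single arrays. Without EGF replicate 1 at 12 h 12 genes passed, all higher, and without replicate 3 only Rpsa passed. No share of all probe sets was counted for the difference in these fits. In the fit that blocks on array set 4 genes passed (Rpl4, Rpl14, Rps9 and Rpsa). There 11.6% of all probe sets were higher and 10.3% lower.

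EGF replicate 3 at 12 h was also set against the other arrays gene by gene. The 12 h controls were at least 2-fold below the 4 h controls for 12 of the 45 genes: Rpl4, Rpl12, Rpl14, Rpl24, Rpl27, Rpl34, Rpl37a, Rps3, Rps9, Rps15, Rps16 and Rps24. EGF replicate 3 was at least 2-fold above the mean of replicates 1 and 2 for 7 genes (Rpl14, Rpl24, Rpl27, Rpl34, Rps9, Rps15 and Rps24), and all 7 were among those 12. Rps27l was the only gene at least 2-fold higher in the 12 h than in the 4 h controls, and with Rpl28 it was 1 of 2 genes at least 2-fold lower on replicate 3. Across the 45 genes the 2 differences had a Pearson r of -0.92 and a Spearman rho of -0.89, and across all 18625 tested probe sets of -0.65 and -0.59. Genes are not independent replicates, and all points share the same arrays. The 12 h controls and EGF replicates 1 and 2 differ from the 4 h arrays both in time and in the actin and Gapdh ratios, which cannot be told apart, so no time course of the controls is drawn from them. The part of these ratios in the 12 h values was not tested.

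**Figure D4:**
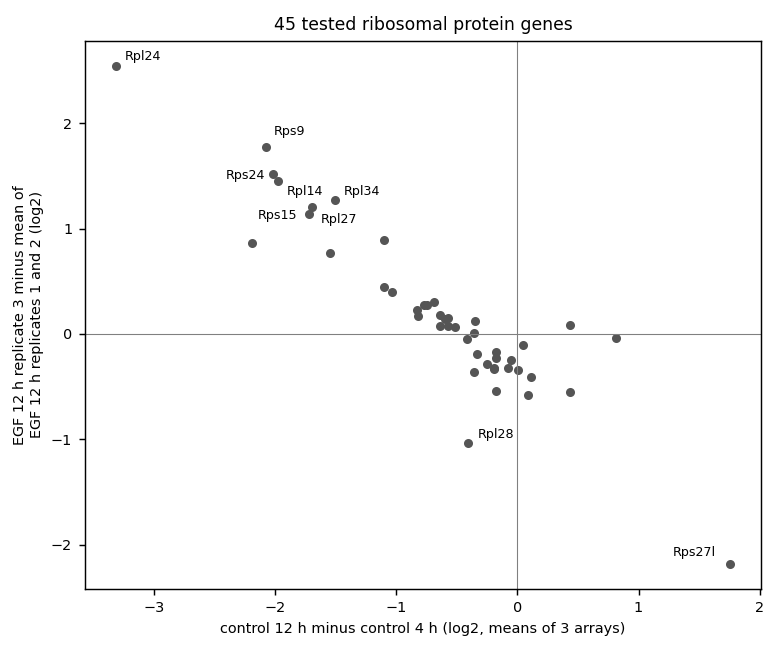
Each point is 1 of the 45 tested ribosomal protein genes; the horizontal axis is control 12 h minus control 4 h and the vertical axis is EGF replicate 3 at 12 h minus the mean of EGF replicates 1 and 2, both in log2. The 7 genes highest on the vertical axis, led by Rpl24, all lie left of -1, and Rps27l lies at the opposite corner.

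Markers of other cell types moved at 12 h as well. The summed signal of the 6 fibroblast markers was 114385 to 182984 on the EGF arrays and 207612 to 248351 on the controls, and 5 of the 6 fell. Among them, Dcn stood at -3.03 and Pdgfra at -1.26 (log2 fold change, both called by limma). The sum of 7 oligodendrocyte markers was 4113 to 5502 against 8978 to 9560.1, and 2 of 3 tested fell, Mbp by 1.24 and Cnp by 0.97 on the log2 scale. The sum of 7 microglial markers was 1535 to 2177 against 794 to 925, and 1 of 3 tested rose, Cd68, by 3.70. The mean signal of Cd68 alone was 924 with EGF and 62.1 without, so the higher sum was not a rise of the whole list. Aif1 (-0.05) and Csf1r (0.42) did not pass, and Itgam and Ptprc lay below the filter. Of 4 endothelial markers 1 was tested and fell (Tek, -1.18), of 3 tested Schwann cell markers 1 rose and 2 fell, and of 5 tested astrocyte markers Nes rose and Glul fell. Without EGF replicate 3 at 12 h, the astrocyte marker Slc1a3 was also called higher by limma (1.496, adjusted p = 0.0427, against 1.065 and 0.1414). In that fit the fibroblast marker Col1a1 was called lower (-0.58, adjusted p = 0.016, against -0.06 and 0.906). Col3a1 was no longer called (-0.45, adjusted p = 0.066, against -0.469 and 0.0421). The other marker calls at 12 h were the same. At 4 h, 2 fibroblast and 2 oligodendrocyte markers and Tek fell, and Nes and Egr2, listed as a Schwann cell marker, rose. The other tested Schwann cell markers, Prx and Pmp22, did not pass at 4 h (-0.38 and 0.18), so the list as a whole did not rise. The part of these marker changes in the values of the ribosomal protein genes was not tested.

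As a share of the summed signal of all probe sets, the 45 genes made up 3.17%, 3.38% and 4.01% on the EGF arrays at 4 h and 3.44%, 3.81% and 3.88% on their controls, so the groups overlapped. At 12 h they made up 2.57%, 3.46% and 3.26% with EGF and 2.70%, 2.52% and 2.64% without, where EGF replicate 1 lay among the controls and the others above. These are shares of signal and not of RNA molecules.

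A further 36 probe sets list a ribosomal protein symbol among several and were outside the rule. All 36 were bright enough to test. At 4 h 0 rose and 0 fell, with a median of -0.10, and at 12 h 14 rose and 0 fell, with a median of 0.48. Over all tested probe sets 11.4% rose and 16.5% fell at 4 h, and 15.3% rose and 20.8% fell at 12 h, with a median of -0.06 at 12 h. Without EGF replicate 3 the 12 h count was 10 and the median 0.33. The effect was higher at 12 h than at 4 h for 4 of the 36 and lower for 0, with a median difference of 0.61. These shares over all tested probe sets were 5.45% and 6.11%, with a median of 0.05. With the array set as a block 9 were higher and 0 lower, against 11.6% and 10.3%. Without EGF replicate 3, 6 were higher and 0 lower, a fit for which no share was counted.

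Genes that build the ribosome and run translation were counted from fixed lists on the same arrays. Their counts are read against the shares of all tested probe sets, of which 11.4% rose and 16.5% fell at 4 h and 15.3% rose and 20.8% fell at 12 h. Of 43 tested genes of ribosome assembly and the nucleolus, 34 rose at 4 h and 0 fell, with a median log2 fold change of 1.00, and 24 rose and 0 fell at 12 h, with a median of 0.47. Without EGF replicate 3 at 12 h, 28 rose and 1 fell at that time. Nop56, a core protein of the particles that methylate ribosomal RNA, read 15222, 16060.3 and 14976 with EGF at 4 h and 4447, 4997 and 3504 without. All EGF arrays lay above all controls of that time, with a log2 fold change of 1.85 ± 0.16 (SE; adjusted p = 1.84e-06), and it was 1.10 ± 0.16 (SE; adjusted p = 0.000112) at 12 h. Fbl, the methylase of those particles, rose by 1.07 and 1.22, and Rrp9 by 1.61 and 1.15. Eif6, which keeps new large subunits from joining small ones, rose by 1.00 and 1.51 (all adjusted p under 0.05 by limma). On the same arrays and scale, the ribosomal protein genes had medians of -0.09 and 0.24.

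Translation factors rose in part. Of 33 initiation factors, 9 rose and 1 fell at 4 h (median 0.19), and 14 rose and 2 fell at 12 h (median 0.34). Eif4a1, the helicase that unwinds mRNA leaders, rose by 0.79 and 2.00, and Eif4e, the cap-binding protein, by 1.04 and 0.75. Of 13 elongation and termination genes, 3 rose and 1 fell at 4 h (median 0.02), and 6 rose and 2 fell at 12 h (median 0.45, or 0.26 without EGF replicate 3 at 12 h, with the same counts). Eef2k, the kinase that slows elongation, fell by 1.61 and by 0.73 on the log2 scale.

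Of 7 tested genes whose mRNAs carry a pyrimidine tract or whose products are linked to the ribosome, 2 rose and 0 fell at each time, with medians of -0.03 and 0.37. Hnrnpa1 rose by 0.42 and 0.82, and Nap1l1 by 0.45 and 0.72. Gas5, a non-coding host gene with such a tract, stood at -0.16 and -0.27 and did not pass.

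Among 24 genes of mTORC1 and S6 kinase control, 3 rose and 8 fell at 4 h (median -0.21), and 5 rose and 7 fell at 12 h (median -0.17). Without EGF replicate 3 at 12 h, 5 rose and 5 fell at that time and the median was -0.004, so the lower median at 12 h rested on that array. The restraints of mTORC1 Deptor, Sesn1 and Sesn2, named for a small p, fell by 1.23, 1.26 and 0.93 at 4 h and by 1.64, 2.15 and 0.86 at 12 h. Elsewhere in the list, Ddit4 stood at -0.88 and -0.75, Tsc1 at -0.54 and -0.49, Tsc2 at -0.26 and -0.26, and Akt1s1 at 0.08 and 0.64. Eif4ebp1, the repressor of Eif4e, stood at 0.33 at 4 h (adjusted p = 0.217 by limma) and rose by 1.23 at 12 h (adjusted p = 0.000217). Of 73 mitochondrial ribosomal protein genes, 4 rose and 7 fell at 4 h (median -0.12), and 18 rose and 5 fell at 12 h (median 0.20). Without EGF replicate 3 at 12 h, which also enters the estimate of the spread, 8 rose and 15 fell at 4 h and 19 rose and 5 fell at 12 h (median 0.15). In that fit 15.7% of all tested probe sets rose and 20.8% fell at 12 h. The 4 h shares were not counted for it, so its 4 h counts cannot be set against one. Whether the lists differ from each other was not tested.

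**Figure D5:**
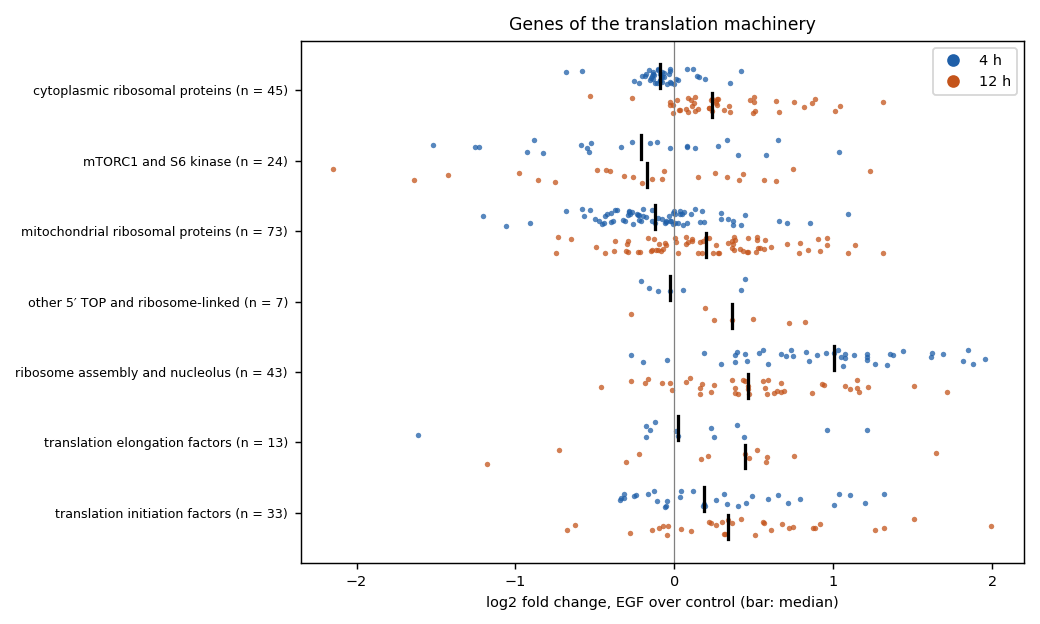
Log2 fold change of EGF over control for each tested gene of 7 groups of the translation machinery at 4 h and 12 h, with the median as a bar. The cytoplasmic ribosomal proteins cluster near -0.09 at 4 h and 0.24 at 12 h, and the assembly and nucleolus genes have medians of 1.00 and 0.47.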

How the data were processed

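RNA from primary rat optic nerve head astrocytes was measured on 12 1-colour Affymetrix arrays, with group and replicate number read from the sample titles. The authors deposited a MAS5 signal for every probe set, a linear intensity, per the submitters' processing notes; its version is not given in the sources used here. From the values, the authors had scaled every array to a 2% trimmed mean of 1500.46 to 1500.56. The table holds no detection or saturation marks, and the number of arrays limits the precision.

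Of 31099 probe sets, 57 controls were left out, and 18625 whose mean signal reached the 40th percentile (215.4) were tested. Before taking log2, 24.4 was added (10th percentile of the signals). Means of the 4 groups were estimated by limma 3.58.1 under R 4.3.3 from all 12 arrays (empirical Bayes with an intensity trend, 8 residual degrees of freedom), two-sided, and p-values were adjusted over the tested probe sets by Benjamini-Hochberg and called at 0.05. Each adjusted p comes from limma. The script was tested on simulated data first. Genes were named from the platform's annotation, and start sites came from RefSeq (GRCr8). Figures were drawn with matplotlib 3.10.9.

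The members, gene lists and tests were chosen with earlier results of these data known. The rule for named genes took the P stalk, Rps6, Rpsa, Rps3, the MDM2 binders, the like forms with their parents, the 6 largest rises and falls at each time, the 3 largest differences in each direction, and up to 3 genes of each list with the smallest p. Not every gene that the rule took is printed, for example Mrpl12, Mrpl34, Mrpl38, Eif1a, Etf1 and Ebna1bp2. Nor are the 4 h values of Rpl28, Rps3, Rps27l and Rpl39, which were among the 6 largest rises. The printed genes are thus a further choice. Rpl18, Rpl35, Rpl6, Rps23 and the genes named for the array sets were chosen after their values were seen. Array sets were defined by time, hybridisation controls above 1000 and an actin ratio above 5.

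Replicate numbers were shared by both arms. After the group means were taken out, same-numbered EGF and control arrays correlated at 0.121, 0.15 and 0.376 at 4 h. At 12 h they correlated at 0.083, -0.111 and -0.103, so the numbers do not pair those arrays. At 4 h, EGF replicate 1 correlated at 0.142 with control replicate 2, and EGF replicate 2 at 0.138 with control replicate 1. Between replicate 3 and the others the values were -0.203 to -0.252. Only the replicate 3 pair, with its high hybridisation controls, thus stood apart. Pairing by number was not shown for replicates 1 and 2. The fit with the replicate block was an alternative, besides other scalings, offsets, filters, probe sets, the array set as a block, and each array left out.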

Additional observations from a re-analysis of the deposited data

Results flagged for a closer look

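By the interaction test in limma, the EGF effect differed between the times for 12 of the genes named from the other lists of the translation machinery. Each value is the effect at 12 h minus that at 4 h, tested over all probe sets, of which 5.45% had a higher and 6.11% a lower effect at 12 h. Most of these genes had been named for a small p, so their number is no share of a list. Over whole lists, the effect at 12 h was higher for 12 and lower for 1 of 73 mitochondrial ribosomal protein genes, and higher for 1 and lower for 11 of 43 assembly and nucleolus genes. Higher and lower counts were 2 and 1 of 33 initiation factors, 1 and 2 of 13 elongation and termination genes, 1 and 1 of 24 mTORC1 genes, and 0 and 0 of 7 pyrimidine tract genes.

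The effect was higher at 12 h, on the log2 scale, by 0.90 for Eif4ebp1 (adjusted p = 0.0452), the repressor of Eif4e, by 0.55 for Mrpl17 and 0.78 for Mrpl27 (adjusted p = 0.0385 and 0.0304), by 1.21 for Eif5a (adjusted p = 0.0287), by 0.73 for Eif1ax (adjusted p = 0.0126) and by 1.21 for Eif4a1 (adjusted p = 0.0134). Without EGF replicate 3 at 12 h the 12 h effects of Eif5a and Eif4a1 were 1.29 and 1.75, against 1.64 and 2.00 with it.

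It was lower at 12 h for 6 genes. The difference was -0.82 for Mrps2 (adjusted p = 0.0176), -0.74 for Nop56 (adjusted p = 0.0458), -1.18 for Wdr43 (adjusted p = 0.00184), -0.64 for Eef1e1 (adjusted p = 0.0119), -1.20 for Eif5a2 (adjusted p = 0.000632) and -0.59 for Eif3j (adjusted p = 0.0337). Of these, Eif5a2 stood at 0.02 at 4 h and fell by 1.18 at 12 h, whereas the others rose at 4 h. The arrays of the 2 times fall into different array sets, and the part of these in the differences was not tested.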

How the results depend on the processing

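Of the 45 ribosomal protein genes, 3 (Rpl4, Rpl18 and Rps3) kept their 12 h call in all 23 alternatives, 5 lost it in at least 1, and 11 gained one in at least 1. Alternatives that drop a 4 h array leave the 12 h log2 fold change unchanged, and the choice of probe set cannot move a gene with only 1. The 12 h count of 8 became 3 with the 12 h arrays alone, 5 with no filter, 5 without the intensity trend and 15 with median centring. Leaving out 1 array gave 4 to 16. For most alternative fits no share of all tested probe sets was counted, so whether calls over all probe sets moved alike is not known. The 4 h count of 1 became 0 with no filter, without the trend or after quantile normalization, and 0 to 1 with 1 array left out. The count of higher differences, 0, became 4 with the array set as a block, 1 with the filter at the 60th percentile, 1 after quantile normalization, and 0 to 12 with 1 array left out. With probe sets that carry no suffix for shared probes, Rps24 reversed, to 0.61 at 4 h, -0.58 at 12 h and -1.19 for the difference; 2 genes then rose at 4 h, 1 fell at 12 h and 1 had a lower difference. The median of the 45 genes moved by less than 1 SD of the 3 EGF arrays' medians in every alternative, but by over 1.5 times in some. Those SDs were 0.225 at 4 h, 0.272 at 12 h and 0.353 for the difference, from both times. The main medians were -0.090, 0.236 and 0.327, all smaller in size, so a median that moved to 0 would have stayed within the limit. The limit therefore says little about stability. With 1 array left out it lay between -0.199 (without EGF replicate 3 at 4 h) and 0.008 (without EGF replicate 1) at 4 h. At 12 h it lay between 0.135 (without EGF replicate 2) and 0.383 (without EGF replicate 1), and for the difference between 0.224 and 0.495 (without EGF replicates 1 and 3 at 4 h). After quantile normalization the 3 medians were -0.010, 0.073 and 0.051. The cause of these changes was not tested, except that fewer arrays leave fewer degrees of freedom.

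With the replicate block, which the correlations bear out only for the replicate 3 pair at 4 h, 13 genes rose at 12 h. In that fit 1 gene (Rpl4) had a higher difference, and the 4 h counts were the same. The share of all tested probe sets was not counted for it. The set block takes the 12 h effect from EGF replicates 1 and 2, since replicate 3 is alone in its set. The 3 arrays per group, very bright signals of unknown saturation for most genes, and unbalanced array sets at 12 h limit what the values show.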
